A study of Mus musculus with 6 samples.

Results

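Of the 2652 genes in the METTL3 RNA immunoprecipitation (METTL3-RIP) table of mouse natural killer (NK) cells, 4 were gene segments of the T cell receptor (TCR), and all 4 were joining segments of the beta locus: Trbj1-2, Trbj1-4, Trbj1-6 and Trbj1-7. They were taken by symbol, as every listed gene named as a variable, diversity, joining or constant segment of the alpha, beta, gamma or delta locus. GENCODE M21 annotates 185 genes whose symbols fit the naming rule, 53 of them in the beta locus. The rule misses TCR genes with other forms of symbol. By annotated gene type, 270 genes belong to the TCR, and of these too only 4 were listed. The study asked how m6A methylation by METTL3 shapes NK cell function, and this experiment recorded the RNA that came down with METTL3, in 3 METTL3-RIP and 3 input samples.

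All 6 libraries came from sorted splenic NK cells of wild-type C57BL/6 mice, collected 1 month after hydrodynamic injection of the plasmid pLIVE-IL-15, which expanded NK cells in the animals. From every lysate a smaller portion was set aside as input, and the larger was incubated with an anti-METTL3 antibody. Both groups therefore shared genotype, strain and IL-15 exposure, and differed in the pull-down. No mock pull-down was analysed here, and no label says that the 3 replicates came from separate animals, so p-values measure the spread between these samples, which may be technical. Values are RPKM, the reads of a gene per kilobase of exon and per megaread of the library. Library totals recovered from these values ran from 9401509 to 11809744 reads for the METTL3-RIP group and from 14710607 to 15992386 reads for the input group. The authors listed genes that they had selected as higher after the pull-down, so the direction of every difference below was fixed by that choice, and unlisted genes were not analysed here. The sizes and p-values below also depend on that choice, and p-values were adjusted over the listed genes only. They are therefore not independent evidence that METTL3 binds a gene.

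METTL3 is the catalytic subunit of the enzyme complex that writes N6-methyladenosine (m6A) on messenger RNA. In RIP-seq, RNA that comes down with a protein is sequenced beside the RNA of the whole lysate. T cells assemble a receptor beta gene from a variable, a diversity and a joining segment. The RAG recombinase cuts at recombination signals next to the segments, the segments are joined and the DNA between them is removed, and the joining segment of the transcript is then spliced to a constant exon. NK cells belong to the innate lymphocytes and do not need a rearranged TCR, although unrearranged TCR loci can be transcribed in lymphoid cells as germline transcripts. Each joining segment is a single short exon that codes for the end of the variable domain, including part of the antigen-contacting loop.

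The sequences are shown with their flanks because these segments are so short, and the positions where signals of a joining segment would lie are marked. The kind of element counted was taken from the annotation, not from these letters. They are the plus strand of GRCm38, printed 5′ to 3′ with 28 bases before and 6 bases after each segment. Capitals mark, in order, the 9 bases at the nonamer position, the 7 bases at the heptamer position, and the first 2 bases after the segment, where a splice donor would lie. Lower-case letters between the signals are the 12-base spacer, and those after the heptamer position are the segment. Trbj1-2 spans chr6:41534001-41534048, Trbj1-4 spans chr6:41534811-41534861, Trbj1-6 spans chr6:41535554-41535606 and Trbj1-7 spans chr6:41535642-41535687, and the printed windows are chr6:41533973-41534054, chr6:41534783-41534867, chr6:41535526-41535612 and chr6:41535614-41535693.
Trbj1-2: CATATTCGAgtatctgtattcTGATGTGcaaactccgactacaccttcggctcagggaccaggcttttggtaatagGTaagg
Trbj1-4: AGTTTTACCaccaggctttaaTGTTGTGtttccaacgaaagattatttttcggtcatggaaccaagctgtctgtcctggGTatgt
Trbj1-6: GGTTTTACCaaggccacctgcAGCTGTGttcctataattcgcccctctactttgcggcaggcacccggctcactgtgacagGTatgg
Trbj1-7: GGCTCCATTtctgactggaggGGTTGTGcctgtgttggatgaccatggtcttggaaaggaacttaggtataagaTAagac

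All 4 segments (ENSMUSG00000076484.1, ENSMUSG00000076486.1, ENSMUSG00000076488.1 and ENSMUSG00000076489.2) were annotated as single-exon TR_J genes on the plus strand, at the same positions in GENCODE M21 and RefSeq, and no other annotated gene overlapped any of them. Against the consensus heptamer CACTGTG, the 7 bases before the segment matched at 4 positions in Trbj1-2, 4 in Trbj1-4, 5 in Trbj1-6 and 4 in Trbj1-7. Every one of the 4 ended in the last 3 bases of that consensus, which touch the segment. The full heptamer stood directly before 19 of the 80 annotated joining segments of all TCR loci (23.8%) and before none of the 4. It lay on either strand of 6.81% of 32851 RefSeq promoter windows of 300 bases. The promoter share allows any position in the window, and the segment share only the position next to the segment. Against the consensus nonamer GGTTTTTGT, 4, 5, 6 and 4 of 9 positions matched in Trbj1-2, Trbj1-4, Trbj1-6 and Trbj1-7.

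Trbj1-7 differed from the other 3 at its 3′ end. The splice donor dinucleotide GT followed Trbj1-2, Trbj1-4 and Trbj1-6, as it followed 72 of 80 joining segments of all loci (90%), whereas TA followed Trbj1-7. Letters fitting TTNGGNNNNGGN, which can code for the phenylalanine and glycine motif of most joining segments, were found from base 18 of Trbj1-2 and base 21 of Trbj1-4. The pattern also fits other codons, and the reading frame was not checked. No match was found in Trbj1-6 or Trbj1-7, on the plus strand. On the sense strand, these letters occurred in 59 of 80 joining segments (73.8%). They occurred on either strand of 16.7% of promoter windows of 300 bases. Such a window offers more positions than a segment, so these shares are not measured alike. A match or its absence describes the letters only.

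GGAC, the most common core of the m6A consensus, was also counted. On the sense strand it occurred 1 time within Trbj1-2 and 0 times within the other 3 segments. In windows of 296 to 303 nt with the segment in the middle, the sense count was 3 for Trbj1-2, 1 for Trbj1-4, 1 for Trbj1-6 and 0 for Trbj1-7, and the antisense count was 2, 2, 1 and 1. For comparison, 65.6% of promoter windows of 300 bases held GGAC on the sense strand and 87.7% on either strand.

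The 4 segments lay within 1687 nt of the first joining cluster of the beta locus. Trbj1-2 and Trbj1-4 were separated by 762 nt, Trbj1-4 and Trbj1-6 by 692 nt, and Trbj1-6 and Trbj1-7 by only 35 nt. A read of 150 nt is longer than any of the segments and can cover Trbj1-6 and Trbj1-7 together, so reads of this pair are uncertain as to which segment they were counted for. The other 3 segments of the cluster, Trbj1-1, Trbj1-3 and Trbj1-5, were not among the listed genes. Trbd1 upstream and the constant gene Trbc1, which begins 2530 nt after Trbj1-7, were not listed either.

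**Figure D1:**
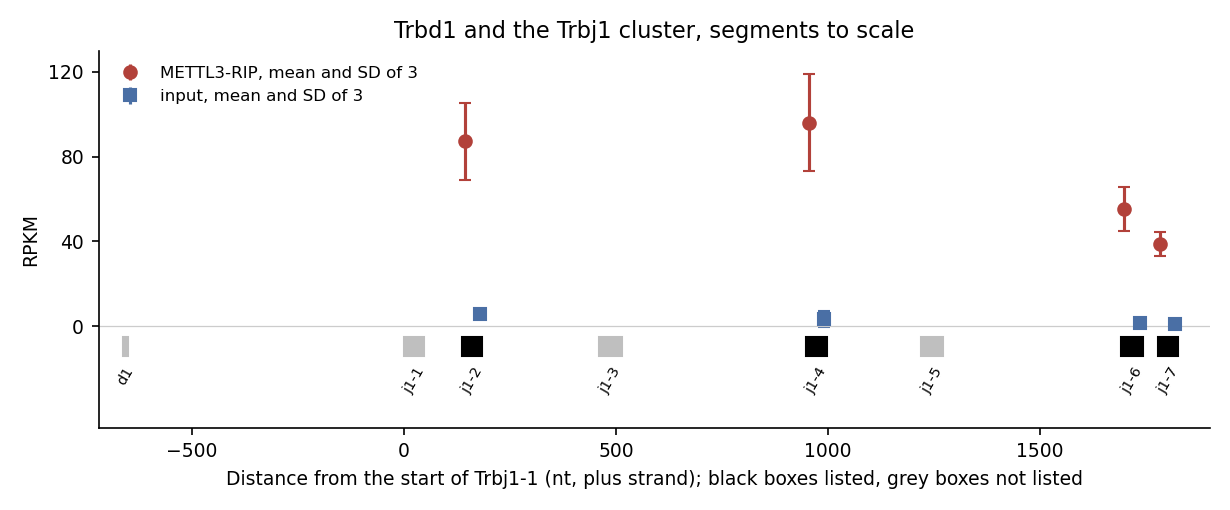
Mean RPKM (y axis, bars SD of 3 libraries) at the position of each listed segment (x axis, nt from the start of Trbj1-1), with METTL3-RIP in red, input in blue, listed segments as black boxes and Trbd1 and unlisted segments as grey boxes. METTL3-RIP means of 87.3, 96.1, 55.2 and 38.9 RPKM were found from left to right, with input means at or below 5.87 RPKM.

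Trbj1-4 had the highest level of the 4 in METTL3-RIP. METTL3-RIP replicates 1, 2 and 3 held 106, 112 and 69.7 RPKM, and the input replicates held 7.73, 1.23 and 1.33 RPKM. The recovered reads behind these values were 51, 55 and 42 after the pull-down and 6, 1 and 1 in input. The groups did not overlap, METTL3-RIP replicate 3 was the lowest of its group, and input replicate 1 stood above the other input libraries. Means were 96.1 ± 23.0 RPKM in METTL3-RIP and 3.43 ± 3.72 RPKM in input (SD, n = 3 each), a ratio of 28.03. Without input replicate 1 this ratio was 75.1, so a few input reads set its size. In limma over all 2652 genes on log2(RPKM + 1), the fitted difference was 4.74 ± 0.51 in log2 units (SE, adjusted p = 2.6e-05), a scale that understates the change where input is low.

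Trbj1-2 was second in level and had the most input reads of the 4 segments. METTL3-RIP values were 93.1, 102 and 67.0 RPKM from 42, 47 and 38 reads. Input values were 6.84, 6.51 and 4.25 RPKM from 5, 5 and 3 reads. The order of METTL3-RIP replicates was that of Trbj1-4, with replicate 2 highest and replicate 3 lowest, and the input libraries lay close together. The mean was 87.3 ± 18.1 RPKM against 5.87 ± 1.41 RPKM (SD, n = 3), a ratio of 14.9. The limma log2 fold change was 3.69 ± 0.22 (SE, adjusted p = 7.5e-07).

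Trbj1-6 gave intermediate values. METTL3-RIP libraries held 46.2, 66.7 and 52.7 RPKM from 23, 34 and 33 reads. Input libraries held 1.24, 2.36 and 1.28 RPKM from 1, 2 and 1 reads. Here METTL3-RIP replicate 1 was the lowest, unlike in Trbj1-2 and Trbj1-4, and replicate 2 was again the highest. Means of 55.2 ± 10.5 and 1.63 ± 0.635 RPKM (SD, n = 3) gave a ratio of 33.9, and the fitted log2 fold change in limma was 4.43 ± 0.20 (SE, adjusted p = 2.0e-07).

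Trbj1-7, at 46 nt the shortest listed gene with an annotated length, was the lowest of the 4. Its METTL3-RIP values were 34.7, 45.2 and 36.8 RPKM from 15, 20 and 20 reads. Only input replicate 2 had reads, 2 in number (2.72 RPKM), and input replicates 1 and 3 had 0, which allows up to 0.197 and 0.204 reads per megaread of the library (a floor of 3 reads, counting error only). METTL3-RIP means were 38.9 ± 5.57 RPKM and input means 0.906 ± 1.57 RPKM (SD, n = 3). The ratio of pooled reads per megaread was 41.0 with a 95% exact interval of 10.8 to 347, so the depth of input hardly bounds it from above. The ratio of mean RPKM was 42.9, and it was 28.6 without input replicate 1 or without input replicate 3. Without input replicate 2, input was at 0 and no ratio was formed. The limma log2 fold change was 4.68 ± 0.47 (SE, adjusted p = 1.9e-05), and this value depended on the pseudocount, at 6.99 with 0.1 and 2.92 with 5 in place of 1.

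**Figure D2:**
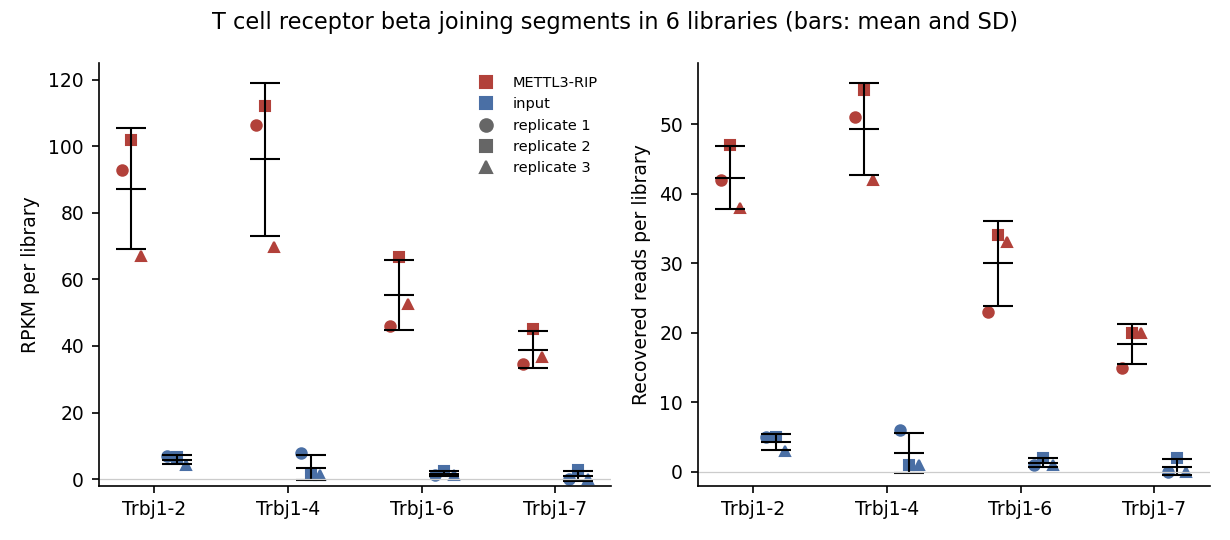
RPKM (left) and recovered reads (right) of each segment in each library, with METTL3-RIP in red, input in blue, the marker shape giving the replicate, and black bars the mean and SD of 3. All METTL3-RIP values, from 34.7 RPKM upward, lie above all input values, which reach 7.73 RPKM.

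In all 4 segments the METTL3-RIP libraries lay above the input libraries without overlap, as did 99.8% of all listed genes. All 4 also passed the limma threshold with METTL3-RIP higher, as did 99.9% of listed genes. Both shares follow from how the table was chosen, and the counts say nothing about the segments in particular. The median log2 fold change was 4.55 over the segments and 1.72 over all listed genes. On the log2(RPKM + 1) scale a gene with a high RPKM has room for a larger difference, so ratios without a pseudocount are given next.

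By the ratio of mean RPKM, the segments were spread over the upper part of the table. Trbj1-2, with rank 1158 among the 2487 listed genes that had any input reads, was close to their median of 14.4. The ratios of these genes had a minimum of 9.14 and a 5th percentile of 9.59, so this median describes genes without low ratios. Trbj1-4 had rank 322, Trbj1-6 rank 230 and Trbj1-7 rank 143, below the 95th percentile of 45.2. From pooled reads, the 95% exact intervals of the ratio were 8.21 to 28.1 for Trbj1-2, 13.6 to 65.0 for Trbj1-4 and 12.6 to 126 for Trbj1-6, and they cover counting error only. The interval of Trbj1-4 and that of Trbj1-2 thus overlapped, and for Trbj1-2, Trbj1-4, Trbj1-6 and Trbj1-7 alike the interval included 14.4.

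When the libraries were scaled so that the median of the listed genes was equal in all 6, the difference shared by the listed genes was removed, and the median log2 fold change over all genes shifted by -1.75. Then 1 of the 4 segments, Trbj1-6, was higher in METTL3-RIP (log2 fold change 0.997 ± 0.23 SE, limma adjusted p = 0.034), beside 8.79% of all listed genes. This call rests on 1, 2 and 1 input reads in replicates 1, 2 and 3. The exact interval of the Trbj1-6 ratio (12.6 to 126) included the table's median ratio of 14.4. None of the 4 was lower, beside 8.52% of listed genes. Trbj1-4 was then at 1.20 ± 0.59 (SE, limma adjusted p = 0.22) and Trbj1-7 at 2.23 ± 0.92 (SE, limma adjusted p = 0.15). Trbj1-2 was at -0.11 ± 0.15 (SE, limma adjusted p = 0.66), on the other side of the table's median.

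**Figure D3:**
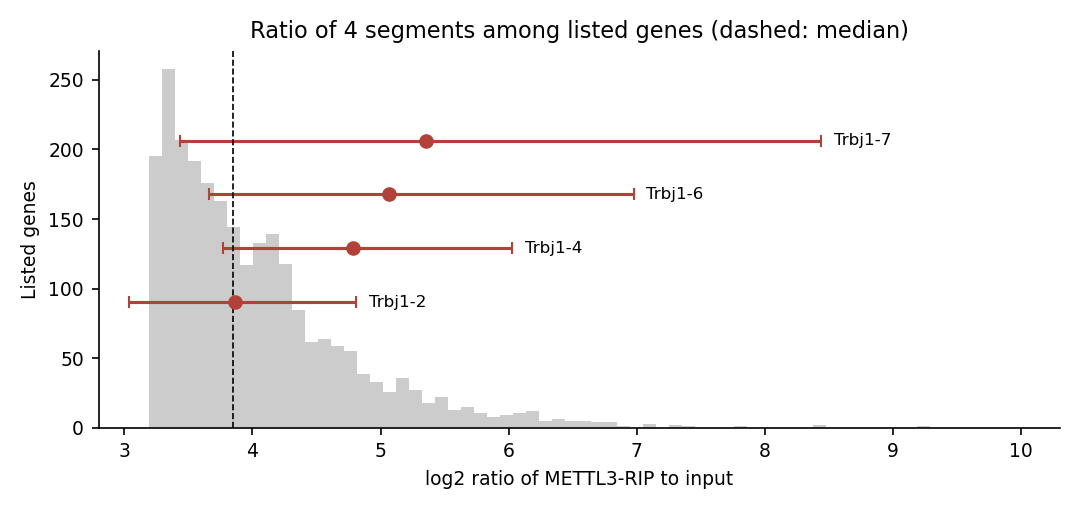
Number of listed genes (y axis) by the log2 ratio of mean RPKM of METTL3-RIP to input (x axis), in grey for the 2487 genes with input reads, with the median dashed; red points and lines are the log2 ratio of pooled reads per megaread and its 95% exact interval for each segment, at arbitrary height. Trbj1-2 sits at the median of listed genes and the other 3 segments to its right, with intervals that reach back to it.

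The levels of the segments in METTL3-RIP were ordered Trbj1-4, Trbj1-2, Trbj1-6 and Trbj1-7, and the reads per nt were compared over all 6 pairs with 95% exact intervals that were not adjusted for the number of pairs. Trbj1-2 did not differ from its neighbour in this order, at 0.912 (0.714 to 1.16) times Trbj1-4, although Trbj1-4 was higher in 3 of 3 libraries. Trbj1-2 was 1.56 (1.18 to 2.06) times Trbj1-6. Trbj1-6 was 1.42 (1.004 to 2.02) times Trbj1-7, an interval that begins just above equality, and the lowest value of Trbj1-6 (46.2 RPKM) was just above the highest of Trbj1-7 (45.2 RPKM). The widest gap was between Trbj1-4 and Trbj1-7, at 2.43 (1.77 to 3.37). Trbj1-4 was 1.71 (1.31 to 2.25) times Trbj1-6, and Trbj1-2 was 2.21 (1.60 to 3.09) times Trbj1-7. Values in a library share its depth, and reads over neighbouring segments need not be independent. These ratios divide reads by segment length, although a read longer than a segment need not scale with that length. The intervals, and their distance from equality, depend on that division. Undivided METTL3-RIP reads were 148 for Trbj1-4, 127 for Trbj1-2, 90 for Trbj1-6 and 55 for Trbj1-7, in the same order.

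The 4 segments together held 131, 156 and 133 reads in the METTL3-RIP libraries and 12, 10 and 5 reads in the input libraries. This was 13.8 ± 2.49 reads per megaread in METTL3-RIP and 0.584 ± 0.227 in input (SD, n = 3), a ratio of pooled reads of 23.2 (95% exact interval 15.7 to 35.6). Trbj1-4 took 35.2% of the METTL3-RIP reads of the segments, Trbj1-2 30.2%, Trbj1-6 21.4% and Trbj1-7 13.1%. METTL3-RIP replicate 2 was the highest library for each of the 4. The median deviation of the segments from their own METTL3-RIP mean on the log2 scale was -0.020, 0.25 and -0.21 in replicates 1, 2 and 3, against 0.015, 0.072 and -0.090 over all listed genes, and replicate 3 was the lowest METTL3-RIP library in Trbj1-2 and Trbj1-4 but replicate 1 in Trbj1-6 and Trbj1-7. The coefficient of variation over METTL3-RIP RPKM was 20.7% in Trbj1-2, 23.9% in Trbj1-4, 19.0% in Trbj1-6 and 14.3% in Trbj1-7. Counting alone at these read numbers gives 15.4%, 14.2%, 18.3% and 23.4%.

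Length separated the rank by level from the rank by reads. Exon-union length was 48 nt for Trbj1-2, 51 nt for Trbj1-4, 53 nt for Trbj1-6 and 46 nt for Trbj1-7, and these were the 4 shortest listed genes with a length, the next being 54 nt. The median over listed genes was 5571 nt. By mean RPKM in METTL3-RIP, Trbj1-4 had rank 28, Trbj1-2 rank 36, Trbj1-6 rank 62 and Trbj1-7 rank 109 of 2652. By reads over the 3 METTL3-RIP libraries, their ranks were 1401, 1477, 1668 and 1906 of the 2147 genes whose values gave whole reads in every library. The segments had totals of 148, 127, 90 and 55 reads, each below the median of 316 over those genes. RPKM divides by the length of the segment, while a fragment that overlaps so short a segment lies mostly outside it, so the RPKM of such genes is not comparable with that of long transcripts.

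Among the 62 listed genes under 200 nt, which share that property in part, the segments were not at the top. The 58 others were longer, with a median of 100 nt against 49.5 nt for the segments. Their RPKM is therefore not matched to that of the segments for length. Trbj1-4 had rank 8 by RPKM, Trbj1-2 rank 11, Trbj1-6 rank 19 and Trbj1-7 rank 25. The 58 other short genes had a median of 24.8 RPKM, of 74 METTL3-RIP reads and of 5.5 input reads over the 3 libraries, where the segments had a median of 71.3 RPKM, 108.5 reads and 6 input reads. The ratio of mean RPKM had a median of 18.02 over the other short genes with input reads, with 5th and 95th percentiles of 10.1 and 71.7, and all 4 segments lay within that range. Input was at 0 in all 3 libraries for 9 of the other 58 (15.5%) and for none of the segments.

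**Figure D4:**
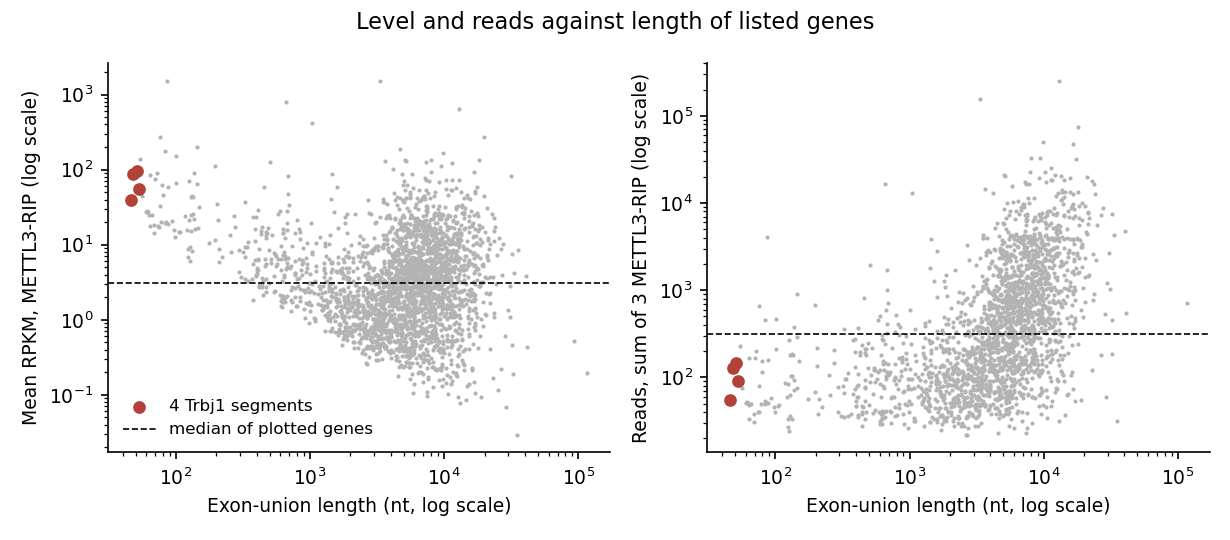
Mean METTL3-RIP RPKM (left) and reads summed over 3 METTL3-RIP libraries (right) against exon-union length in nt, all axes on log scales, with each grey dot a listed gene, the 4 segments in red and the median of plotted genes dashed. The segments are at the far left, above the median by RPKM and below it by reads.

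Other TCR segments were not among the listed genes. Of the beta locus, 4 of 7 segments of the first joining cluster were listed, 0 of 7 of the second, 0 of 2 diversity segments, 0 of 2 constant genes and 0 of 35 variable segments. None of the 116 alpha, 11 delta and 5 gamma genes that fit the naming rule was listed. No immunoglobulin gene, of 432 with such a biotype, was listed. Of all 97 annotated genes of up to 53 nt the 4 segments were the only ones in the table. Without values for the constant genes, transcripts of a rearranged gene, spliced germline transcripts and unspliced RNA cannot be told apart here.

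Of 35 genes for the TCR complex, its signalling and T lineage factors, 3 were listed, and all 3 passed the limma threshold with METTL3-RIP higher (background 99.9%). The share of all annotated genes that was listed is not given here. Counts of listed genes, in this list and in the others, are therefore not read as high or low. Plcg1, a phospholipase of TCR signalling, had 0.799, 0.914 and 0.787 RPKM in METTL3-RIP against 0.0167, 0.0318 and 0.0519 RPKM in input (log2 fold change 0.83 ± 0.06 SE, limma adjusted p = 2.3e-06). Bcl11b, a transcription factor that sets T cell identity, had 1.31, 2.01 and 1.47 RPKM against 0.0972, 0.0925 and 0.0838 (log2 fold change 1.24 ± 0.11 SE, limma adjusted p = 6.4e-06). Ratios of mean RPKM were 24.9 for Plcg1 and 17.5 for Bcl11b, and with equal library medians 0 of the 3 passed the threshold. The CD3 chains, Lck, Zap70, Lat, Rag1 and Rag2 were not listed.

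The labelled cell type could not be checked in this table, because 0 of 14 NK cell markers were listed. Of other cell types, 1 of 14 alpha-beta T cell markers (Bcl11b), 1 of 10 gamma-delta T cell markers (Zbtb16) and 1 of 9 B cell markers (Ebf1) were listed, and 0 of 7 myeloid, 0 of 4 dendritic and 0 of 5 erythroid markers. Zbtb16, which is also expressed in innate lymphocytes, had 2.9999, 3.86 and 2.68 RPKM in METTL3-RIP and 0.174, 0.225 and 0.142 in input (limma adjusted p = 1.1e-06). Ebf1 had 0.349, 0.576 and 0.312 RPKM against 0.0135, 0.0385 and 0.0139 (limma adjusted p = 4.0e-04). The part of T cells among the sorted cells in the segment reads was not tested, and in bulk RNA fewer cells of a type and less RNA per cell cannot be told apart.

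Near-identical copies elsewhere, which could share reads, were looked for. Identity between any 2 of the 4 ranged from 45.5% to 58.2%, and the highest identity of any of them to another beta joining segment was 67.9%. In a blastn search of GRCm38 with each segment and 50 bases on both sides, the longest alignment elsewhere on the chromosomes was 24 nt for Trbj1-2, 22 nt for Trbj1-4, 24 nt for Trbj1-6 and 36 nt for Trbj1-7. On scaffolds 1 alignment was found, of 21 nt for Trbj1-4. No alignment found elsewhere covered a whole segment.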

How the data were processed

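The authors trimmed reads (Trimmomatic 0.36), mapped them to GRCm38 with STAR 2.5.3a and deposited a single gene table. Libraries were stranded and paired-end. The counter, its annotation and its use of strand are not given in the sources used here, and neither is the counted unit (read or pair). The unit of the 6 per-library columns was inferred as RPKM, computed by the authors. With GENCODE M21 exon lengths, 83.4% to 84.8% of a library's RPKM values, as deposited, gave whole reads (tolerance 0.02), and 2147 of 2551 genes with a unique symbol (84.2%), the 4 segments included, were whole in all 6. The other columns of the authors hold a deposited log2 fold change and an unadjusted p-value, and they were not used.

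Samples were grouped by title. METTL3-RIP was compared with input by limma 3.58.1 in R 4.3.3 (lmFit, eBayes with trend, two-sided) on log2(RPKM + 1) with no filter, with Benjamini-Hochberg adjustment over 2652 genes and a threshold of 0.05. The fit was tested on simulated data. A permutation test of 3 against 3 libraries cannot give a two-sided p below 0.1 and was not used. Every segment was named with its value in every library, and genes of the pathway and marker lists were named where listed, except 1 that is not reported here. The segments and lists were chosen with earlier results of these data known. Intervals of read ratios and per-million values are exact and cover counting error only. Sequences are from GRCm38 and motif backgrounds from RefSeq, with Biopython 1.88 and blastn 2.17.0 (word size 18). Alternatives were other pseudocounts (0.1 and 5), a filter at a mean RPKM of 1, equal library medians, the replicate number as a block, and each library left out. A limma voom fit on recovered reads was added after the data were seen.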

Additional observations from a re-analysis of the deposited data

How the results depend on the processing

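The 4 segments passed the limma threshold in the same direction with either pseudocount, with the filter and with each library left out (4 in every case). They also passed in the voom fit on recovered reads, where all 2147 genes tested did so as well. Of the 2652 listed genes, 2652 passed with a pseudocount of 0.1 and 2645 with 5. The choice of listed genes fixed this direction, so these passes say nothing about the segments in particular. Over all listed genes, same-numbered METTL3-RIP and input libraries did not deviate together (correlations -0.019, -0.019 and 0.078). With the replicate number as a block, 2643 listed genes and 4 segments passed, and no call on a segment changed. For the segments, the block gave smaller SEs of the log2 fold change. They were 0.11 for Trbj1-2, 0.37 for Trbj1-4, 0.098 for Trbj1-6 and 0.33 for Trbj1-7. Without the block they were 0.22, 0.51, 0.20 and 0.47, and those are the SEs printed in the sections on each segment. The median log2 fold change of the segments (4.55) was 5.15 with a pseudocount of 0.1 and 3.12 with 5. With a mean RPKM of at least 1, only 1671 genes were tested and all 1671 passed, and 1 gene of the TCR and T cell list was tested and passed. With equal library medians, an alternative that by its construction removes the difference shared by the listed genes, 459 listed genes, 1 segment and 0 genes of that list passed, the median of the segments was 1.10, and Trbj1-2 turned to -0.11, while Trbj1-4 (1.20) and Trbj1-7 (2.23) no longer passed. Leaving out each library in turn gave 2629 to 2644 listed genes, 3 genes of the list, a median of 4.34 to 4.60, and log2 fold changes of 3.50 to 3.86 for Trbj1-2, 4.40 to 5.38 for Trbj1-4, 4.29 to 4.62 for Trbj1-6 and 4.36 to 5.31 for Trbj1-7. Input depth limits the ratios: the 4 segments had 13, 8, 4 and 2 input reads in all.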

Other observations

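Within the first joining cluster, the signals of the 3 segments that were not listed were read in the same way. The 7 bases at the heptamer position matched CACTGTG at 7 positions before Trbj1-1, at 5 before Trbj1-3 and at 6 before Trbj1-5, where the listed segments had 4 or 5, a range that 5 of the 7 segments of the second cluster, also unlisted, shared. The nonamer position matched GGTTTTTGT at 4, 6 and 4 of 9 positions in Trbj1-1, Trbj1-3 and Trbj1-5, within the range of the listed segments. All 3 were followed by GT, and all 3 held letters fitting TTNGGNNNNGGN on the plus strand, which 2 of the 4 listed segments did. With 4 listed and 3 unlisted segments, and no level for the unlisted ones analysed here, this is a description of sequence only.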
